A study of Mus musculus with 4 samples.

Results

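Cytochrome P450 enzymes are haem-containing oxidases that hydroxylate or epoxidise drugs, fatty acids, steroids, vitamin D and retinoic acid. Most sit in the endoplasmic reticulum and take electrons from P450 reductase, and a few are mitochondrial and take them from ferredoxin. In the kidney the proximal tubule is known as their main site, where they make epoxides and hydroxy acids from arachidonic acid and interconvert the forms of vitamin D. The genes described here were all those whose single annotated symbol begins with Cyp, a family number and a subfamily letter, leaving out Cyp4a10, Cyp4a14 and Cyp51. The rule gave 71 of the 18193 genes on the array. In 24 of the 71 (33.8%) the mean signal reached the median of all genes, a log2 value of 8.04 or an intensity of about 247, and the other 47 were too dim to read. A gene was represented by its brightest probe set, on the scale log2(intensity + 16).

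The RNA came from glomeruli of male mice that had all lost a kidney by surgery, and each of 4 groups was read on 1 Affymetrix array. GC-A KO mice (written KO) carried a systemic knockout of guanylyl cyclase A, a receptor of cardiac natriuretic peptides, and WT mice were wild type. KO ALDO and WT ALDO mice had a subcutaneous infusion of aldosterone with a 6% salt diet, for 3 weeks according to the design text. KO control and WT control mice had a subcutaneous infusion of 2% ethanol with a normal diet. The sources used here do not give strain, age, the number of mice behind an array or how glomeruli were isolated. With 1 array per group no difference could be tested, no replicate error exists, and precision is limited by this number of arrays. Npr1, which encodes the deleted receptor, had 23.4 in KO ALDO and 60.5 in WT ALDO, and 108 in KO control against 92.6 in WT control, all too dim to read, and where its probes lie relative to the deletion is unknown here, so the genotype labels could not be checked.

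The arrays were scaled alike, with a trimmed mean of 500.003 on each, and array medians were between 89.5 and 103. The 18 probe sets of spiked-in control RNA still differed: all were lower in KO ALDO than in KO control (median -0.11, from -0.27 to -0.04) and in WT ALDO than in WT control (median -0.27, from -0.50 to -0.04). Their medians between genotypes were 0.08 under ALDO and -0.04 under control treatment. Differences of that size between ALDO and control arrays are within this technical spread, and its part in the P450 values was not tested. Podocyte markers were read on every array (7 of 7 named on the array, summed intensity 24113 in KO ALDO, 22066 in WT ALDO, 21003 in KO control and 21723 in WT control). Proximal tubule markers were also read, 16 of 16 named on the array, with sums of 272731 in KO ALDO and 303334 in WT ALDO, and of 297362 in KO control and 321278 in WT control. The preparations therefore held tubular RNA beside glomerular RNA, and in such bulk samples fewer cells of a type and less RNA per cell cannot be told apart. Of 8 liver cell markers on the array 4 were readable, with intensities of 24165 to 31152 for Ttr, 607 to 705 for Apoa2, 330 to 588 for Alb and 286 to 602 for Apoh, and Apoa1, Tat, Ahsg and Cps1 were too dim. Alb and Apoh had lower values on the ALDO arrays, with log2 differences of -0.68 and -0.73 in KO and -0.77 and -1.03 in WT, and their part in the P450 values was not tested. Of the 6 adrenal cortex markers on the array, Scarb1 alone was readable.

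Among the 24 readable genes, 3 had a mean intensity above 20000. Cyp4b1, a fatty acid and xenobiotic hydroxylase regulated by androgen in mouse kidney, had 28872 in KO ALDO and 34433 in WT ALDO, and 33143 in KO control against 33559 in WT control. Cyp2e1, which oxidises ethanol and small solvents, had 29227 in KO ALDO and 29810 in WT ALDO, and 31266 in KO control against 29608 in WT control. Its 4 values lay within 1.07-fold of each other. The control mice were infused with ethanol, and whether the aldosterone infusion held the same vehicle is unknown here. The part of ethanol in these values was not tested. Cyp2j5, an arachidonic acid epoxygenase of the mouse proximal tubule, had 19253 in KO ALDO and 22019 in WT ALDO, and 23152 in KO control against 26426 in WT control. KO ALDO was the lowest array for each of the 3. A second, dimmer probe set of Cyp2j5 also had its lowest value in KO ALDO (2935, against 4136 in WT ALDO) and its highest in WT control (4656, with 3701 in KO control). The highest signal on any array was 49489, and whether signals above 20000 are compressed was not tested.

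**Figure D1:**
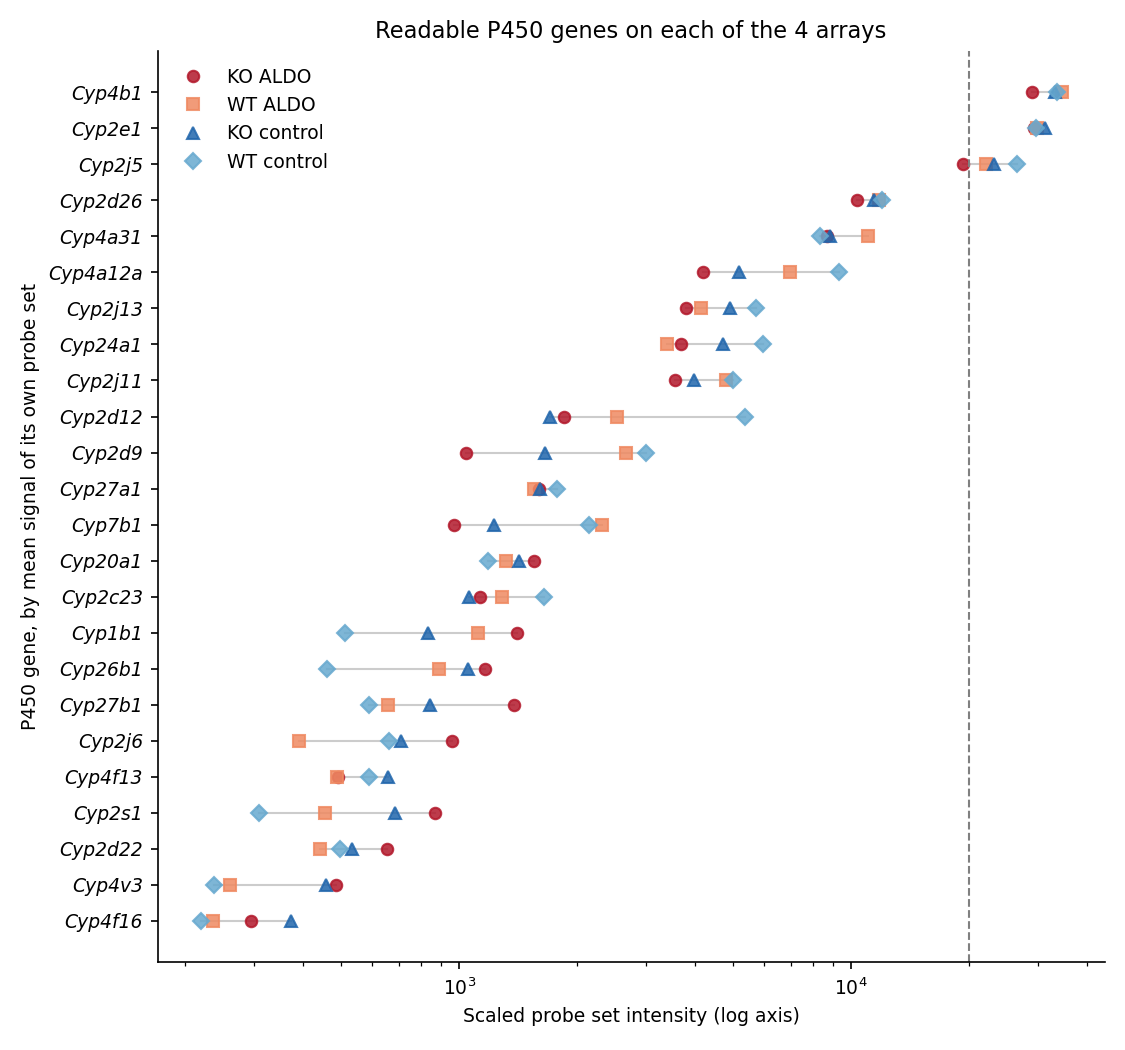
Scaled intensity (log axis) of the 24 readable P450 genes on the KO ALDO, WT ALDO, KO control and WT control arrays, 1 point per array, with genes ordered by the mean signal of their own probe set and a dashed line at 20000. The 4 points of Cyp2e1 nearly coincide, while those of Cyp2d12 spread from 1702 in KO control to 5354 in WT control; different genes have different probes, so their positions do not rank their transcripts.

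The 47 dim genes had mean intensities from 1.93 to 246, and 42 of them were below 100. They held all 5 genes of steroid hormone synthesis on the array, with intensities of 3.49 to 128: Cyp11a1, which makes the first step from cholesterol, Cyp11b1 and Cyp11b2, which make corticosterone and aldosterone in the adrenal, Cyp17a1 and Cyp21a1. Cyp11b2 had 46.4 in KO ALDO and 29.7 in WT ALDO, and 40.1 in KO control against 5.80 in WT control. Cyp11b1 had 32.2 in KO ALDO and 44.7 in WT ALDO, and 15.6 in KO control against 12.6 in WT control. Both were below the array median on every array, so no difference is read from them. Also dim were all 5 genes of the drug-metabolising CYP3A subfamily (1.22 to 55.5), 10 of 11 CYP2C genes (2.03 to 164) and 7 of 8 in the CYP2A, 2B, 2F, 2G and 2S subfamilies (7.30 to 263). Cyp1a1 and Cyp1a2, the classical targets of the aryl hydrocarbon receptor, had 7.30 to 58.0. The bile acid genes Cyp7a1, Cyp8b1, Cyp39a1 and Cyp46a1 were dim as well. At the edge of the limit, the mean log2 value was 8.18 for Cyp4f16, which was counted, and 8.02 for Cyp39a1 and 7.96 for Cyp2j9, which were not. Cyp4v3 and Cyp4f16 were under the limit on at least 1 array, and 3 of the 47 dim genes were above it on at least 1.

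Promoter sequences, 250 bases before to 50 after the start of the gene, are in RefSeq (GRCm38.p6) for 17 of the 24 readable genes. Those of 6 are shown, since these genes carry the contrasts described below. Cyp2d9 passed 2-fold and Cyp2d26, of the same subfamily, did not. Cyp2j6 and Cyp2j5 are neighbours whose values differ, and Cyp27b1 and Cyp1b1 were highest in KO ALDO. Capitals mark matches, on either strand, to 5 short motifs, and the first was shortened by a letter after a first search. TATAA is the core of the box that positions the start of transcription, GTTAAT part of the site of HNF1 and CAAAGTCC of that of HNF4, both liver and kidney factors. AGGTCA is bound by nuclear receptors and GCGTG by the aryl hydrocarbon receptor.
Cyp2d9, chr15:82452127-82452426, + strand: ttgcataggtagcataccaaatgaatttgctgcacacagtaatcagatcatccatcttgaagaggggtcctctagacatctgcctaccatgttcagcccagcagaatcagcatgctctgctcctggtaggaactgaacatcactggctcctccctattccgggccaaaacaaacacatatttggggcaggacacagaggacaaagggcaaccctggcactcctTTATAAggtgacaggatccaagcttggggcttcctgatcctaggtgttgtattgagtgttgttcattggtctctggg
Cyp2d26, chr15:82794196-82794495, - strand: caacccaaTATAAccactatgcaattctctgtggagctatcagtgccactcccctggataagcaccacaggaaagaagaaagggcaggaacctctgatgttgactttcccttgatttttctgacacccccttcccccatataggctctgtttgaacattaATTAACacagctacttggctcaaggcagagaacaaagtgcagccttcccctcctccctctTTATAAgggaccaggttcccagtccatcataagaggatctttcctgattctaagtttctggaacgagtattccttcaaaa
Cyp2j6, chr4:96553602-96553901, - strand: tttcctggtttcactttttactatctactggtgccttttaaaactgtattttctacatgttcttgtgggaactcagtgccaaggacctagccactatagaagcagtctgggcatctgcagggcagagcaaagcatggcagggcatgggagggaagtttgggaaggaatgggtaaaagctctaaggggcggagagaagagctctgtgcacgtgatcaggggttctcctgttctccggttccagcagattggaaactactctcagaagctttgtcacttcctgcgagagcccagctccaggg
Cyp2j5, chr4:96664070-96664369, - strand: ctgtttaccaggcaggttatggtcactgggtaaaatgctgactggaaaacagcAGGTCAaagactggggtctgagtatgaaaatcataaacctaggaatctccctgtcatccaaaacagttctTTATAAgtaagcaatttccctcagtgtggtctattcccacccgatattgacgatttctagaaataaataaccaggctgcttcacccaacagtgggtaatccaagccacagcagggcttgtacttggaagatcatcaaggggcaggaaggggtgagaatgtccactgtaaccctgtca
Cyp27b1, chr10:127047996-127048295, + strand: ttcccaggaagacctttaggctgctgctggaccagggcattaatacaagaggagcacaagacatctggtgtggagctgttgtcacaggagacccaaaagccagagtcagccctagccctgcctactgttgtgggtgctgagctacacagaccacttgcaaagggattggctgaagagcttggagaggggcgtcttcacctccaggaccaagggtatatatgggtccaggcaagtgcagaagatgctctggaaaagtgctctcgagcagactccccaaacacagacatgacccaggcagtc
Cyp1b1, chr17:79715012-79715311, - strand: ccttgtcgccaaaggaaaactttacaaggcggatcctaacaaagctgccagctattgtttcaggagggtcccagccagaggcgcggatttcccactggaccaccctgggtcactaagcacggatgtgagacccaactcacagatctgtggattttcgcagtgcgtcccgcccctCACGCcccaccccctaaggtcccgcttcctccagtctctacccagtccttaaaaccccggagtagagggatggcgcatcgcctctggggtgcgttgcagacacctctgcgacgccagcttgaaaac
Cyp2d9 and Cyp2d26 both held TATAA close to the start, at -26 and -29, and GTTAAT was found in Cyp2d26 alone of the 17. TATAA was in 6 of the 17 promoters (35.3%) and in 25.5% of 27025 promoters of all genes, GCGTG in 5 (29.4%) and in 32.5%, AGGTCA in 1 and in 16.04%, and GTTAAT in 1 and in 7.201%. CAAAGTCC was in 0 of the 17 and in 1.44% of all. These are matches of letters in a short window and not shown to be sites. Aligned end to end, the promoters of Cyp2d9 and Cyp2d26 were identical at 53.6% of alignment columns and those of Cyp2j5 and Cyp2j6 at 48.1%, beside 44.9% to 50.1% for pairs of a CYP2D with a CYP2J promoter. Cyp1b1 had 16 CpG dinucleotides in its window and the others between 1 and 4.

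The first question was how the genotypes differed with aldosterone and salt, by KO ALDO against WT ALDO. The readable P450 genes split evenly, with 12 above 0 and 12 below, and a median of -0.01 beside 0.01 for all 9097 readable genes. At 2-fold or more, 2 of 24 (8.33%) were higher, against 1.26% of all readable genes, and 2 (8.33%) were lower, against 0.352%. Higher were Cyp27b1 and Cyp2j6, and lower were Cyp2d9 and Cyp7b1. A difference of 0.5 or more on the log2 scale in either direction was found in 8 of 24 (33.3%), against 12.7% of all readable genes.

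Cyp7b1 encodes the oxysterol hydroxylase that also acts on neurosteroids. Its intensity was 970 in KO ALDO and 2317 in WT ALDO, and 1229 in KO control against 2147 in WT control. Both KO arrays were therefore below both WT arrays, with log2 differences of -1.24 under ALDO and -0.80 under control treatment. A further probe set of nearly the same signal gave -1.54 and -0.97. Another, near the floor (9.54 to 41.9), gave -0.39 and 0.92, the second of opposite sign.

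Cyp2d9, a testosterone hydroxylase typical of male mouse liver, had 1037 in KO ALDO and 2663 in WT ALDO, and 1659 in KO control against 2988 in WT control. The log2 differences were -1.35 and -0.84, and here too both KO arrays were below both WT arrays. Cyp4a12a, the androgen-induced arachidonic acid omega-hydroxylase of male mouse kidney, had 4179 in KO ALDO and 6998 in WT ALDO, and 5171 in KO control against 9289 in WT control. Its differences of -0.74 and -0.84 did not reach 2-fold, and the same order of genotypes held. Its probe set may also read the near-identical gene Cyp4a12b, and CYP2D genes are close copies of each other, so these values are uncertain as to the single gene.

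Cyp27b1, the enzyme that makes active vitamin D, had 1376 in KO ALDO and 656 in WT ALDO, and 842 in KO control against 590 in WT control. It was highest in KO ALDO, with log2 differences between genotypes of 1.05 under ALDO and 0.50 under control treatment. The first was at the limit, since it was 0.9997 with a pseudocount of 64 and 0.91 with arrays centred on their medians. Cyp2s1, an epithelial P450 that acts on retinoic acid, had 867 in KO ALDO and 454 in WT ALDO, and 687 in KO control against 308 in WT control. Cyp4v3, a fatty acid hydroxylase whose human counterpart CYP4V2 is mutated in a crystalline eye dystrophy, had 484 in KO ALDO and 259 in WT ALDO, and 456 in KO control against 237 in WT control. For both, the KO arrays were above the WT arrays, by 0.91 for Cyp2s1 and 0.86 for Cyp4v3 under ALDO and by 1.12 and 0.90 under control treatment. A second probe set of Cyp4v3, under the low-signal limit, gave 1.39 and 1.20.

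Cyp2j6, a fatty acid epoxygenase of the CYP2J subfamily, had 959 in KO ALDO and 389 in WT ALDO, and 708 in KO control against 662 in WT control. The difference of 1.27 under ALDO came with a low WT ALDO value. Its other readable probe set had 607 in KO ALDO and 380 in WT ALDO, and 559 in KO control against 334 in WT control, with differences of 0.65 and 0.72. The 2 probe sets thus had the same sign under both treatments and differed in where the gap lay.

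**Figure D2:**
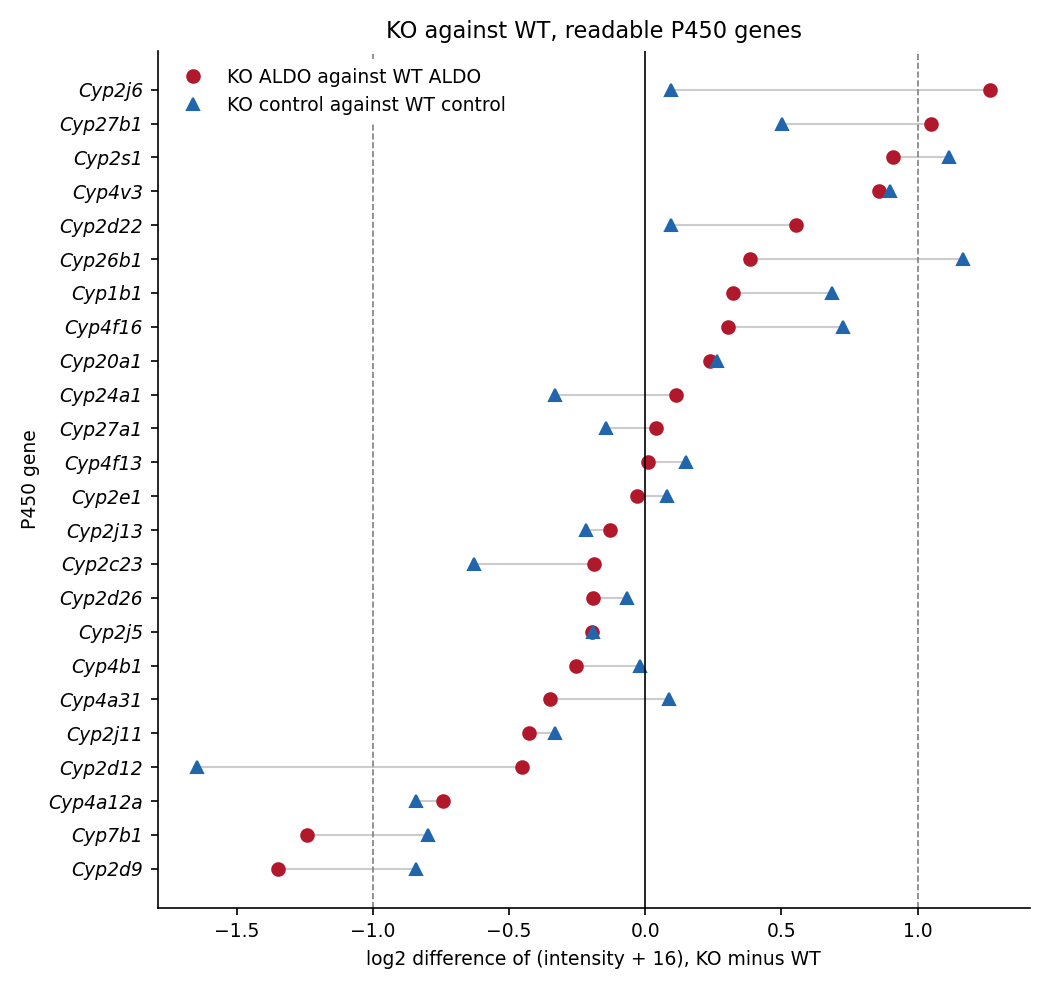
Log2 difference (KO minus WT) of each of the 24 readable P450 genes under ALDO (circles) and under control treatment (triangles), ordered by the difference under ALDO, with dashed lines at 2-fold. Cyp2d9, Cyp7b1 and Cyp4a12a lie below -0.5 under both treatments, and Cyp27b1, Cyp2s1 and Cyp4v3 lie at or above 0.5 under both.

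The second was how they differed without that treatment, by KO control against WT control. Again 12 readable P450 genes were above 0 and 12 below, with a median of 0.03 beside a median below 0.01 in size for all genes. Cyp26b1 and Cyp2s1 were 2-fold or more higher (8.33% of 24, against 0.967% of all readable genes), and Cyp2d12 was lower (4.17%, against 0.176%). Differences of 0.5 or more in either direction were found in 11 of 24 (45.8%), against 7.94% of all readable genes.

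Cyp26b1, which breaks down retinoic acid, had 1163 in KO ALDO and 888 in WT ALDO, and 1053 in KO control against 460 in WT control. WT control was the low array, and the log2 differences between genotypes were 1.17 under control treatment and 0.38 under ALDO. Cyp2d12, a CYP2D gene, had 1848 in KO ALDO and 2532 in WT ALDO, and 1702 in KO control against 5354 in WT control. The WT control array stood out as high, so that the difference was -1.64 under control treatment and -0.45 under ALDO. Slc22a7, an organic anion transporter in the list of markers of the S3 segment, the last part of the proximal tubule, had a like course. It had 581 in KO ALDO and 985 in WT ALDO, and 594 in KO control against 2052 in WT control. The ALDO difference in KO minus that in WT was 1.02 for Slc22a7 and below 0 for the other 4 S3 markers. The arachidonic acid epoxygenase Cyp2c23 also had its highest value in WT control (1645, against 1058 in KO control), with 1129 in KO ALDO and 1287 in WT ALDO.

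The genotype differences under the 2 treatments share no array. Of the 24 genes, 10 were above 0 in both, 10 below 0 in both and 4 of opposite sign, so that 83.3% had the same sign beside 68.6% of all readable genes. Across the 24 genes, which share the 4 arrays and are not independent, Pearson's r was 0.73 and Spearman's rho 0.81, and across all 9097 genes 0.59 and 0.52. Signs of small differences depend on scaling: centring arrays on their medians moved the median of all genes by -0.14 under ALDO and -0.11 under control treatment, and left 9 and 8 of the 24 P450 genes above 0. The share of higher genes among all genes past 2-fold was then 57.4% in place of 78.2% under ALDO, and 71.3% in place of 84.6% under control treatment. With that scaling, Cyp24a1, Cyp27a1 and Cyp4f13 lay below 0 under ALDO, and Cyp2e1, Cyp4a31, Cyp2j6 and Cyp2d22 under control treatment. The 8 genes past 2-fold kept the sign of their 2-fold differences.

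Other cell markers differed between the genotypes beside these genes. Proximal tubule markers were below 0 in 14 of 16 under each treatment, with medians of -0.25 under ALDO and -0.23 under control treatment and none past 2-fold. The 5 markers of the S3 segment were all below 0 under both, with medians of -0.75 and -0.26, and their summed intensity was 19006 in KO ALDO and 28716 in WT ALDO, and 26484 in KO control against 34256 in WT control. Slc7a13, a cystine transporter of that segment, was at -1.13 under ALDO and -0.55 under control treatment. Endothelial markers were above 0 in 10 of 10 under both treatments, with medians of 0.46 and 0.42 (sums of 41388 in KO ALDO and 28878 in WT ALDO, and of 35910 in KO control and 27122 in WT control). Mesangial and smooth muscle markers were above 0 in 6 of 7 and 7 of 7 readable genes (medians 0.44 and 0.41). Their sums, over all 8 on the array with the dim one included, were 19602 in KO ALDO and 12615 in WT ALDO, and 11579 in KO control and 9356 in WT control. Of 10 macrophage markers on the array, 6 were readable and all 6 were above 0, with medians of 1.13 and 1.32. Sums over all 10, dim ones included, were 11792 in KO ALDO and 5472 in WT ALDO, and 10232 in KO control and 5312 in WT control. No marker in these lists had a value of 0. Distal nephron markers, which lay on either side of 0, had medians of 0.11 and 0.01. Of these 13 markers, 1 was 2-fold or more higher under ALDO (Scnn1g, 1.06) and 2 under control treatment (Scnn1g, 1.21, and Scnn1b, 1.20). None was 2-fold lower, and the lowest were Fxyd4 at -0.99 under ALDO and Slc12a1 at -0.60 under control treatment. The part of these cell types in the P450 differences was not tested.

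**Figure D3:**
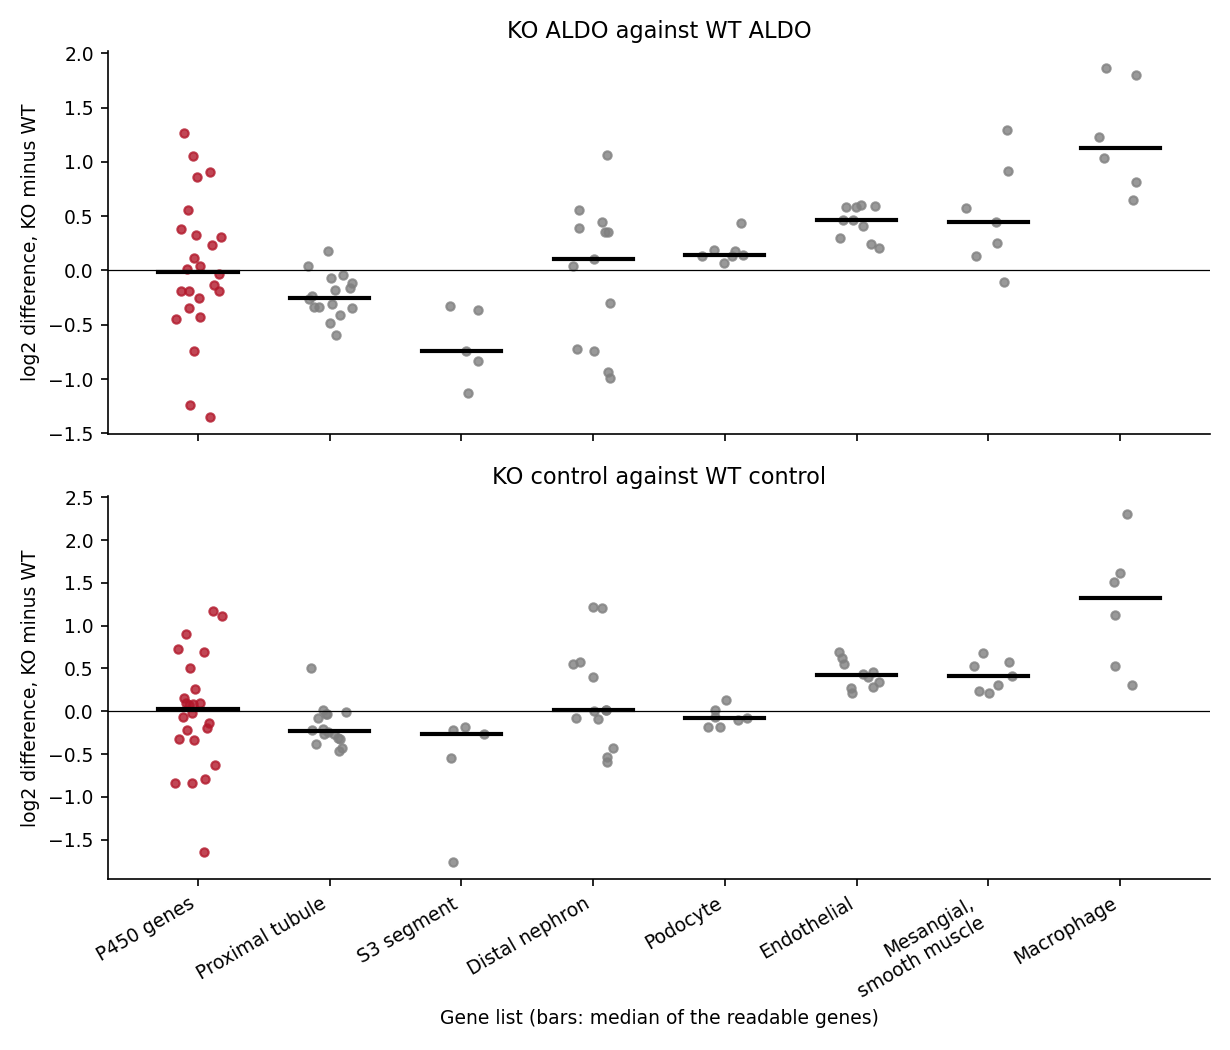
Log2 differences (KO minus WT) of single readable genes under ALDO (top) and under control treatment (bottom) for the P450 genes and 7 marker lists, with a bar at each list's median. P450 genes spread to either side of 0 (medians -0.01 and 0.03), while S3 segment markers lie below 0 and endothelial and macrophage markers above it.

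The response to aldosterone and salt in KO mice was read from KO ALDO against KO control. No readable P450 gene was 2-fold or more higher or lower, against 0.572% and 0.132% of all readable genes, and the median was -0.06. Of the 24 genes, 10 were above 0 and 14 below (58.3%, against 47.7% of all readable genes, whose median was 0.01). They ran from -0.67 for Cyp2d9 to 0.75 for Cyp1b1. Cyp27b1 followed Cyp1b1 at 0.70, and these 3 were the only readable P450 genes with a difference of 0.5 or more (12.5%, against 7.64% of all readable genes).

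The response in WT mice was read from WT ALDO against WT control. There 11 readable P450 genes were above 0 and 13 below (54.2%, against 48.1% of all readable genes). The median was -0.04, beside 0.01 for all readable genes. Cyp1b1 was higher by 2-fold or more (4.17%, against 0.330% of all readable genes) and Cyp2d12 lower (4.17%, against 0.352%). Differences of 0.5 or more were found in 6 of 24 (25%), against 5.54% of all readable genes. Since the Cyp2d12 value rests on the high WT control array, it is not a second observation beside its genotype difference under control treatment.

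Cyp1b1, which hydroxylates oestradiol and polycyclic hydrocarbons, had 1404 in KO ALDO and 830 in KO control, and 1118 in WT ALDO against 510 in WT control. Both ALDO arrays were above both control arrays, by 0.75 in KO and 1.11 in WT on the log2 scale. A dimmer probe set, under the limit, gave 0.68 and 1.19, and another, near the floor, had the opposite sign (-0.64 and -0.50), so that the mean of all 3 gave 0.26 in KO and 0.60 in WT. Markers of mesangial and smooth muscle cells were above 0 in 7 of 7 in both ALDO comparisons (medians 0.70 in KO and 0.43 in WT), and endothelial markers in 8 of 10 in both (0.38 and 0.30); their part in the Cyp1b1 values was not tested.

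Cyp24a1, the vitamin D hydroxylase that starts its breakdown, had 3673 in KO ALDO and 4713 in KO control, and 3396 in WT ALDO against 5938 in WT control. Both ALDO arrays were below both control arrays, with log2 differences of -0.36 in KO and -0.80 in WT, and a second readable probe set gave -0.33 and -0.92. Cyp27a1, the mitochondrial sterol hydroxylase, stayed between 1553 and 1779 on the 4 arrays, and Cyp2r1, a vitamin D hydroxylase of the liver, was too dim (37.9 to 72.3). The vitamin D receptor gene Vdr had 2255 in KO ALDO and 2750 in WT ALDO, and 2105 in KO control against 2821 in WT control.

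**Figure D4:**
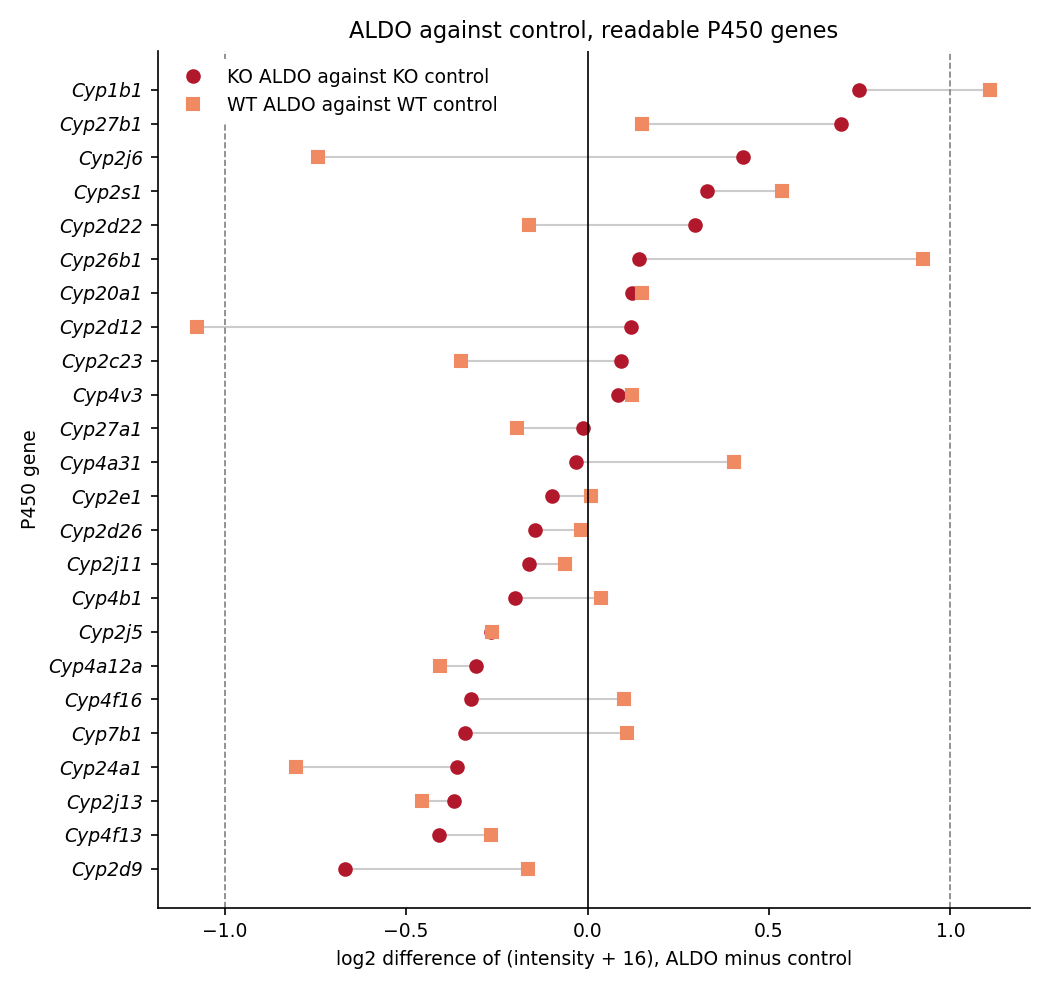
Log2 difference (ALDO minus control) of each readable P450 gene in KO (circles) and in WT (squares), ordered by the value in KO, with dashed lines at 2-fold. Cyp1b1 is highest in both genotypes, and no KO value reaches 2-fold.

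The 5 CYP2J genes on the array lie near each other on chromosome 4, and 4 of them were readable. Cyp2j5, Cyp2j11 and Cyp2j13 were below 0 in all 4 comparisons, which share the 4 arrays and are not independent. Proximal tubule markers were also mostly below 0, in 14 of 16 between genotypes under each treatment. In the ALDO comparisons they were so in 13 of 16 in KO and 12 in WT. Spiked-in controls were all below 0 in the ALDO comparisons, from -0.27 to -0.04 in KO and from -0.50 to -0.04 in WT. The part of either in the CYP2J values was not tested. Cyp2j13 had 3788 in KO ALDO and 4146 in WT ALDO, and 4897 in KO control against 5699 in WT control. Cyp2j11 had 3554 in KO ALDO and 4788 in WT ALDO, and 3975 in KO control against 5001 in WT control. Their neighbour Cyp2j6 had values above 0 in 3 of the 4 comparisons, and -0.74 in WT ALDO against WT control, where its second probe set gave 0.18. In the CYP2D subfamily on chromosome 15, Cyp2d26 stayed between 10322 and 11959 on the 4 arrays. Cyp2d22, often set beside the human drug-metabolising enzyme CYP2D6, was above 0 between genotypes under both treatments (0.55 and 0.10), in contrast to Cyp2d9 and Cyp2d12. Its second readable probe set, of nearly the same signal, gave 0.15 and 0.07.

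The CYP4A genes other than those left out had different courses. Cyp4a12a is given above. Cyp4a31, a close relative of Cyp4a10, had 8655 in KO ALDO and 8851 in KO control, and 11024 in WT ALDO against 8323 in WT control. WT ALDO was its highest array, with a log2 difference of 0.40 against WT control, and its second readable probe set gave 0.56. Of the CYP4F genes, which include leukotriene hydroxylases, Cyp4f13 had 491 in KO ALDO and 488 in WT ALDO, and 657 in KO control against 590 in WT control. Cyp4f16 had 295 in KO ALDO and 236 in WT ALDO, and 372 in KO control against 219 in WT control, and 5 CYP4F genes were too dim. Cyp20a1, a P450 with no settled substrate, had 1550 in KO ALDO and 1313 in WT ALDO, and 1423 in KO control against 1182 in WT control.

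**Figure D5:**
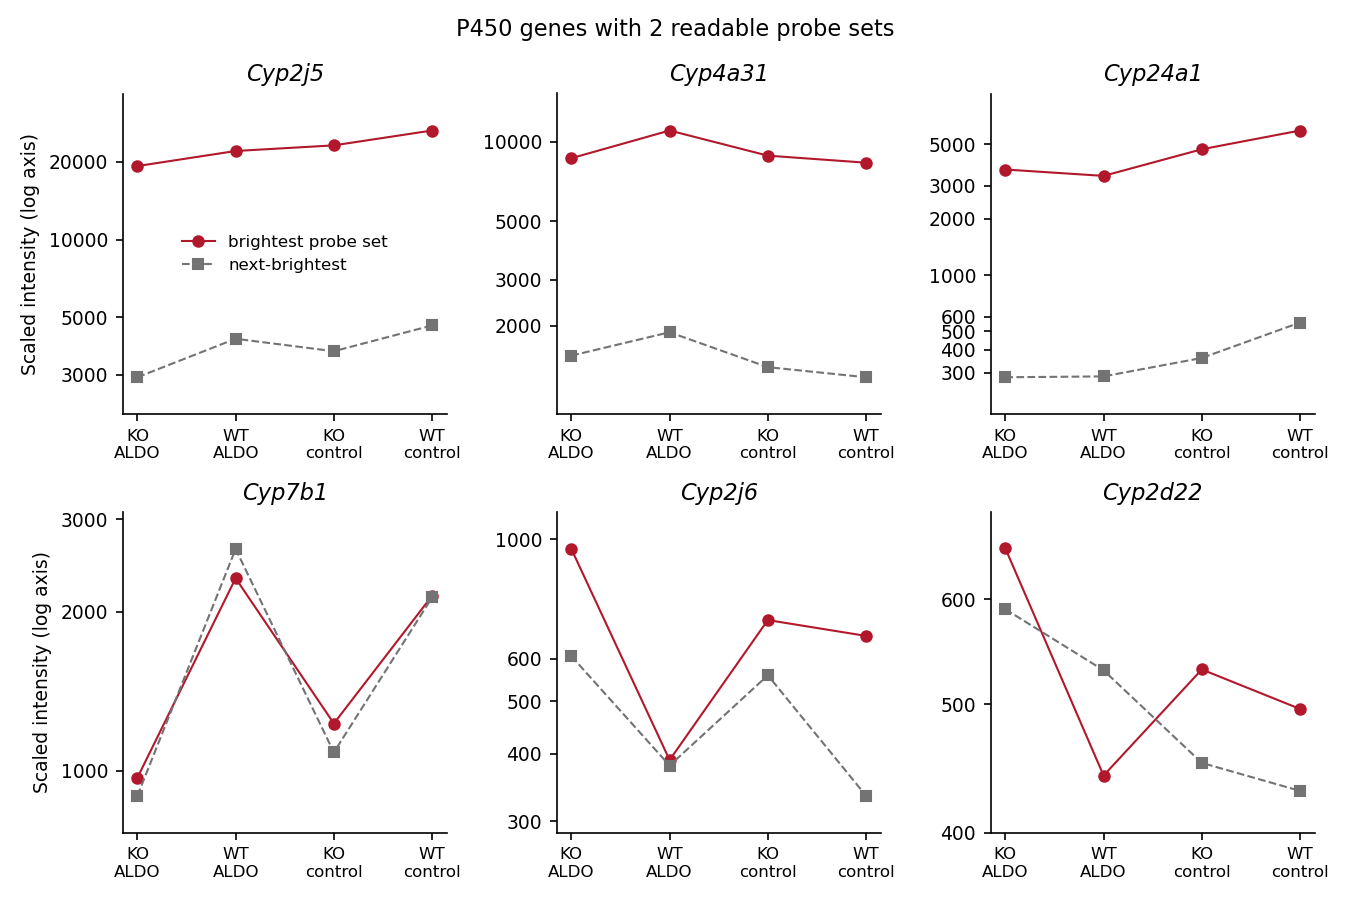
Scaled intensity (log axes) of the brightest (solid) and next-brightest (dashed) probe set on the 4 arrays, for the 6 P450 genes with 2 probe sets above the low-signal limit. The 2 probe sets run nearly in parallel for Cyp7b1, Cyp4a31 and Cyp24a1, while for Cyp2j6 the brightest set has 662 and the other 334 in WT control. Some log2 differences differ in sign between the 2 sets. They are 0.11 and -0.01 for Cyp24a1 (KO ALDO against WT ALDO), and -0.03 and 0.14 for Cyp4a31 (KO ALDO against KO control). In WT ALDO against WT control they are -0.16 and 0.29 for Cyp2d22 and -0.74 and 0.18 for Cyp2j6.

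Of the difference between the ALDO effects, KO minus WT, 9 readable P450 genes were above 0 and 15 below (62.5%, against 49.4% of all readable genes). The median was -0.07, beside 0.004 for all readable genes. Cyp2d12 (1.19) and Cyp2j6 (1.17) reached 2-fold upward (8.33%, against 0.594% of all readable genes), and none downward, against 0.330%. The lowest was Cyp26b1 at -0.78. By array, KO ALDO was the highest for 8 of the 24 genes (33.3%, against 33.5% of all readable genes) and the lowest for 9 (37.5%, against 30.2%). WT control was the highest for 10 (41.7%, against 26.7%) and the lowest for 8 (33.3%, against 28.6%). WT ALDO was the highest for 3 (12.5%, against 22.3%) and the lowest for 5 (20.8%, against 21.2%). KO control was the highest for 3 (12.5%, against 17.5%) and the lowest for 2 (8.33%, against 19.96%). Every array thus held extremes of either kind, and the shares were not tested against those of all readable genes.

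Genes that work with P450 enzymes were read from lists. Of 8 electron donors and partners 6 had values on the array, and all 6 were readable. The gene of P450 reductase was not among these 6, so nothing is read for it. Medians of the 6 genes lay between -0.12 and 0.03 in the 4 comparisons. The exception was Alas1, the first enzyme of haem synthesis, with 4418 in KO ALDO and 4264 in WT ALDO, and 2190 in KO control against 4189 in WT control. KO control was the low array, at -0.93 against WT control, and a second probe set gave -0.82. KO ALDO was 1.01 higher than KO control, and 0.61 higher in the second probe set. Of 15 regulators 13 had values on the array, and 8 of these were readable. None of the 8 was past 2-fold between genotypes, with medians of -0.08 under ALDO and -0.03 under control treatment. Hnf4a, a nuclear receptor that drives many P450 genes, had 8864 in KO ALDO and 10641 in WT ALDO, and 9271 in KO control against 12115 in WT control. Arnt, the partner of the aryl hydrocarbon receptor, was lower under ALDO, at -1.42 in KO and -1.67 in WT in its brightest probe set, but the other readable probe set gave 0.24 and 0.51, so its direction is not settled. The receptor gene Ahr itself was at 0.17 in both ALDO comparisons. Of 13 epoxide hydrolases and other oxidases 10 were readable, 8 of them below 0 in KO ALDO against WT ALDO (median -0.24) and 6 in KO control against WT control (median -0.08). Ephx2, the soluble epoxide hydrolase that breaks down arachidonic acid epoxides, had 6076 in KO ALDO and 9003 in WT ALDO, and 7364 in KO control against 10189 in WT control. Fmo5, a flavin monooxygenase, was at -0.87 under ALDO and -0.76 under control treatment. Of 4 androgen-responsive kidney genes outside the family, Slco1a1, an organic anion transporter, had 1609 in KO ALDO and 2721 in WT ALDO, and 2957 in KO control against 4606 in WT control, while Kap, a kidney androgen-regulated protein gene, lay between 43854 and 49489. The other members, Odc1 and Gusb, had differences of either sign between genotypes, -0.39 and 0.19 under ALDO and 0.10 and -0.26 under control treatment.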

How the data were processed

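The deposited table held linear intensities of probe sets for each array. Per the submitters' processing notes they came from Affymetrix Expression Console, and its algorithm and version are unknown here. In that table, the mean without the highest and lowest 2% was 500.003 on each of the 4 arrays, so the authors had scaled arrays to a common level, which hides any change shared by most transcripts. The deposited intensities were transformed here to log2(intensity + 16), which understates the change of low genes. Of 45101 probe sets, 64 were controls, 34945 of the rest carried a single symbol, 932 carried several, and 9160 had no entry in the annotation. Genes took their brightest probe set by mean log2 value, and genes at or above the median of 18193 genes were counted. All 71 P450 symbols matched the RefSeq table of GRCm38.p6.

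Groups came from the sample titles. All 4 comparisons are log2 differences of single arrays, and the ALDO difference in WT was subtracted from that in KO. Genes were counted at 2-fold and set beside all readable genes, with no test. The members, the 13 gene lists, the role groups and the alternatives were chosen with earlier results of these data known. Named genes were those past 2-fold in a comparison, those above 20000, the 10 brightest, the brightest of each role group, and the vitamin D and corticosteroid hydroxylases; some further members and list genes were named after their values were seen, and the tolerance of 0.1 for medians, the next-brightest probe set and the 2-fold limit for differences between ALDO effects singled out in the closing section were also chosen then. Steps were tested on simulated data (python 3.11.15, pandas 2.3.3).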

Additional observations from a re-analysis of the deposited data

Results flagged for a closer look

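Cyp2d12 had ALDO differences of opposite sign in the 2 genotypes, 0.12 in KO and -1.08 in WT, so that the ALDO effects differed by 1.19 on the log2 scale; the difference was not tested, and the WT control array was the high one (5354, against 1702 in KO control). Cyp2j6 did so too, with 0.43 in KO and -0.74 in WT, a difference of 1.17 that was not tested and that was -0.06 in its second readable probe set.

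A probe set listed under 2 genes of the CYP2A subfamily, and so not among the 71 genes, had 17021 in KO ALDO and 8437 in KO control, and 8836 in WT ALDO against 8039 in WT control. It was 1.01 higher on the log2 scale in KO ALDO than in KO control and 0.14 higher in WT ALDO than in WT control; the KO ALDO array alone stood out, and which of the 2 genes it reads cannot be told from the annotation.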

How the results depend on the processing

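Of 135 values recomputed for counts and medians (9 alternatives), 110 stayed within 1.5 times the count or 0.1 of the median. Without the filter on low signal all 71 genes entered, and counts of members higher and lower by 2-fold became 4 and 2 for KO ALDO against KO control, 5 and 2 for KO control against WT control, 8 and 3 for WT ALDO against WT control and 4 and 6 for the difference between the ALDO effects, while 4 were lower in KO ALDO than in WT ALDO; values near the floor make most of these. Among the brightest 25% of genes, with 15 P450 genes left, none was higher in KO ALDO than in WT ALDO (0), in KO control than in WT control (0) or in WT ALDO than in WT control (0), 1 was higher for the difference between the effects, and medians were -0.19, -0.22 and -0.17 in those 3 comparisons. For KO ALDO against WT ALDO, 1 member was higher with a pseudocount of 64, 1 with median centring and 1 with the next-brightest probe set, an alternative chosen after seeing the data that also left 1 for the difference between the effects. Median centring gave P450 medians of -0.15 under ALDO and -0.079 under control treatment between genotypes, and the share of higher among all 2-fold calls was 57.4% under ALDO (78.2% as reported) and 71.3% under control treatment (84.6%). With the mean of all probe sets, 4 were higher in KO control than in WT control, 0 in WT ALDO than in WT control and 1 for the difference between the effects. Shares of all genes past 2-fold were computed for the reported setting and the scalings alone. The other counts in this section therefore have no background beside them, and nothing is read from their size. The difference of Cyp2j6 between the ALDO effects turned to -0.063 with its next-brightest probe set. The 2-fold differences of Cyp2d12, Cyp2d9 and Cyp7b1 were past 2-fold in all 9 alternatives. Those of Cyp26b1 and Cyp2s1 were so in the 8 that counted them, since both genes fell outside the brightest 25%. For Cyp2d12, Cyp2d9, Cyp26b1 and Cyp2s1 only 4 alternatives, the pseudocounts and the scalings, could give another value. With the mean of all probe sets Cyp4v3 passed 2-fold in both genotype comparisons (1.13 under ALDO and 1.05 under control treatment) and Cyp1b1 in KO control against WT control (1.03). No paired analysis was possible because each group had 1 array, and for the same reason no replicate could be left out.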
